A study of Mus musculus with 7 samples.

Results

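Collagens are the main proteins of bone matrix, and the genes described here are all those of the count files whose symbol names a collagen chain (Col, a type number, a and a chain number), 44 of 27179 genes. They comprised 11 fibrillar chains, 6 basement membrane chains, 9 FACIT chains (fibril-associated collagens with interrupted triple helices), 6 beaded filament chains and 12 others (short-chain networks, transmembrane collagens, multiplexins, the anchoring fibril chain and the remaining types). RNA came from the femora, flushed of marrow, of female 12-week-old C57BL/6 mice, with 3 libraries labelled Dmp1Cre.EfnB2f/f and 4 labelled Dmp1Cre, which served as controls. In the former, called EfnB2f/f-labelled libraries below, Cre recombinase driven by a fragment of the Dmp1 promoter is meant to remove the floxed Efnb2 gene, which encodes the membrane ligand EphrinB2, in late osteoblasts and osteocytes. The controls, littermates or cousins, carry the same Cre without the floxed allele, so both groups express Cre and other cell types of the bone keep Efnb2. The comparison asks whether RNA of the collagen chains differs in bone whose osteocytes are meant to lack EphrinB2. Library totals ranged from 17245556 to 22075778 counts, and each of the 44 chain genes had at least 1 count in every library. Levels are CPM (counts scaled to library size after TMM normalization) within a gene, and RPKM (CPM for each kilobase of gene length) between genes.

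Efnb2 itself went against the labels. It stood at 17.0, 12.5 and 11.2 CPM in EfnB2f/f-labelled libraries 1, 2 and 3 and at 8.08, 7.54, 6.13 and 6.05 CPM in controls 1 to 4. Every EfnB2f/f-labelled library was above every control. The log2 fold change was 0.96 ± 0.21 (SE; edgeR quasi-likelihood test, unadjusted p = 0.0016, adjusted p = 0.511). Counts over the whole gene include exons outside the deleted part and cells without Cre, which could not be separated here, so they do not measure the deletion. Why the counts were higher was not tested. Each direction below is that of the libraries as labelled. Controls 1 and 4 also stood apart: on the first principal component of log2 CPM, which held 53.9% of the variance, they scored 43.9 and 68.8 and the other 5 libraries from -41.4 to -1.76. The results that rest on them are given with and without them. Leaving them out was not in the planned design, which used all 7 libraries, and they were set apart from these same data. Where a left-out control was high, its removal raises the estimate by construction, so the fits without them are descriptive. The labels put EfnB2f/f-labelled libraries 1 and 2 in one parent cross and controls 1 and 2 in another, while EfnB2f/f-labelled library 3 and control 3 had the same one and control 4 yet another, so that only 1 cross held both genotypes. Per the study's methods, samples were taken on 2 days, 2 floxed and 3 control samples on the first and 1 of each on the second. The labels do not say which libraries these were, so day is in no fit here, and its part in the results was not tested. The numbers in the sample names put EfnB2f/f-labelled library 3 and control 4 last, after a gap. This matches the split, but the names give no day. If it were the day, a fit without control 4 would leave EfnB2f/f-labelled library 3 with no control of its day.

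A collagen molecule is a triple helix of 3 chains, which are modified in the endoplasmic reticulum, folded with chaperones, secreted, trimmed at their ends and cross-linked outside the cell. Type I collagen, from Col1a1 and Col1a2, forms the fibrils that bone mineral is laid on, types V and XI set fibril formation, FACIT chains sit on fibril surfaces, type IV forms the sheet of basement membranes under endothelium and around muscle fibres, and type VI forms beaded filaments around cells.

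The chain genes were spread over 15 chromosomes, and some lie close together. Col4a1 and Col4a2, which supply the chains of the commonest type IV network, start 21 bases apart on opposite strands of chromosome 8, Col4a5 and Col4a6 start 1343 bases apart on chromosome X, and Col6a4, Col6a5 and Col6a6 lie near each other on chromosome 9. RefSeq promoter windows (GRCm38.p6, the build of mm10, 250 bases before to 50 bases after a start) were at hand for 35 of the 44 genes, 38 windows in all. The windows of the divergent Col4a1 and Col4a2 pair are shown because these genes kept nearly the same ratio in every library. Capitals mark the 78 bases that both windows hold, read on opposite strands, and positions are chr8:11312777-11313076 (minus strand) for Col4a1 and chr8:11312555-11312854 (plus strand) for Col4a2.
Col4a1: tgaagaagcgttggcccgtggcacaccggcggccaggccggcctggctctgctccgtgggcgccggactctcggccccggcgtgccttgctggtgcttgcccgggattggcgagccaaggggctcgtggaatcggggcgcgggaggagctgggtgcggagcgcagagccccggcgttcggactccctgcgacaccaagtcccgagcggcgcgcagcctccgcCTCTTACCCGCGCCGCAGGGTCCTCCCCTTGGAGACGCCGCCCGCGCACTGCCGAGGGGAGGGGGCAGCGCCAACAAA
Col4a2: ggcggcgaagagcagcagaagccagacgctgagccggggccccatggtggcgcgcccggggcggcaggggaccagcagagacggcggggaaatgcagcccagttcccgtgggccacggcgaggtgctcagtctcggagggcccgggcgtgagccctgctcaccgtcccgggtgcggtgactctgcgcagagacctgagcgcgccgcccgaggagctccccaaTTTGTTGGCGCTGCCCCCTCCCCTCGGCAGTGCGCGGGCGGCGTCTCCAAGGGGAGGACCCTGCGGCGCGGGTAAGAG

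Windows of Col1a2 (chr6:4505368-4505667, plus strand) and Col3a1 (chr1:45311288-45311587, plus strand) are shown for the contrast between chains that share fibrils, with matches of 3 motifs in capitals: TATAAA, known as the TATA box, then CCAAT, and last GGGCGG, known as the GC box, each searched on both strands, so that a match may read as its reverse complement.
Col1a2: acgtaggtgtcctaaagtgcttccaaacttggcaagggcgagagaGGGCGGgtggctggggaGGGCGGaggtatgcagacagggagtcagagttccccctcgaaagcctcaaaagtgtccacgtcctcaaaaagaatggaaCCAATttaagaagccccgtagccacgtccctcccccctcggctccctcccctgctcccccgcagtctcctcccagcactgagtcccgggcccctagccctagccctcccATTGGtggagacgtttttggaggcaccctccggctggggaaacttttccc
Col3a1: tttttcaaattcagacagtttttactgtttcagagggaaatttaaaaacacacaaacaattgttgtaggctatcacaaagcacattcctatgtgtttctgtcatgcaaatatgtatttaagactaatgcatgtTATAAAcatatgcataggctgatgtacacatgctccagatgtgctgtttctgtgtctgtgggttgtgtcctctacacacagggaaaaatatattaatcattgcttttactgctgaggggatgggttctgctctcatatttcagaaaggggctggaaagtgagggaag
The Col1a2 window held GGGCGG and CCAAT matches and no TATAAA, while that of Col3a1 held 1 TATAAA and neither of the others. GGGCGG was found in 23 of the 38 collagen windows against 35.7% of all 32851 windows, CCAAT in 13 against 37.4%, and TATAAA in 5 against 13.6%. The collagen windows are not all separate. A GGGCGG match in the bases shared by Col4a1 and Col4a2 counts for both, and the windows of Col6a2 overlap. Base composition was not compared. A match describes letters in the window and is not a site of binding.

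Type I collagen dominated the RNA of the chain genes. Col1a1, the alpha1(I) chain, averaged 2898 RPKM over the 7 libraries, Col1a2, the alpha2(I) chain, 2206 RPKM, and the next, Col3a1, the chain of type III collagen of soft tissue and vessel walls, 190 RPKM. Both type I genes together took from 74.1 to 85.6% of all collagen counts, and the 11 fibrillar genes took from 92.6 to 96.2% of summed collagen RPKM. The other fibrillar chains averaged 118 RPKM for Col5a2, 111 for Col11a2, 85.2 for Col11a1, 73.7 for Col2a1, 46.6 for Col5a1 and 10.4, 5.82 and 3.27 for Col5a3, Col24a1 and Col27a1. Of the rest, the highest were Col6a1 (45.2 RPKM), Col12a1 (42.4), Col6a2 (39.99) and Col4a1 (39.5). In all, 17 of the 44 chain genes averaged at least 10 RPKM, 12 lay from 1 to 10 and 15 below 1, the last including Col4a3, Col4a4, Col4a5 and Col4a6, Col9a1, Col9a2 and Col9a3, and Col6a4 and Col6a6.

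**Figure D1:**
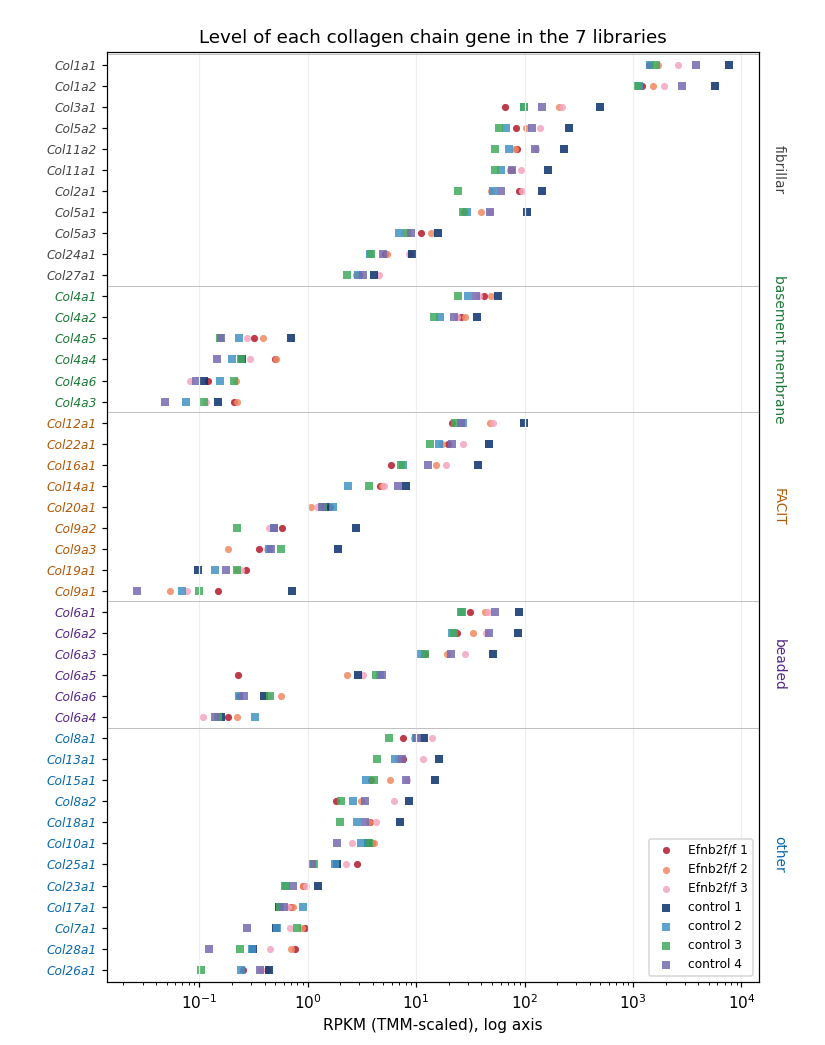
RPKM on a log axis for the 44 chain genes in each of the 7 libraries, grouped by class and ordered by mean level, with circles for EfnB2f/f-labelled libraries and squares for controls. Col1a1 and Col1a2 lie above all others, and control 1 (dark squares) is the highest library for 29 of the 44 genes.

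How much collagen RNA a library held varied more within the controls than between the genotypes. All collagen genes together took 1.78, 2.18 and 3.02% of the counts in EfnB2f/f-labelled libraries 1, 2 and 3 and 7.48, 1.75, 1.67 and 3.32% in controls 1 to 4. Control 1 was the highest of the 7 libraries for 28 of the 43 chain genes tested, against 14% of all 15098 genes tested, and control 3 the lowest for 17, against 13.4% of all genes. Control 1 stood at 4.64 times the median of the other 6 libraries for Col1a1, 4.16 times for Col1a2 and 4.05 times for Col3a1, and across the 11 fibrillar chains the multiple ran from 1.39 to 4.64. Markers of several cell types moved with this library. The 8 osteoblast markers summed to 2938 CPM in control 1 and to 806 to 1512 CPM in the others, with 7 of 8 highest there, and all 9 tendon and fibroblast markers were highest there (sum 2273 CPM against 527 to 1270). The 8 osteoclast markers summed to 2526 CPM there and to 725 to 1250 CPM in the others. The 6 osteocyte markers summed to 591 CPM there, to 476 CPM in EfnB2f/f-labelled library 1 and to 149 to 262 CPM in the rest. The 7 adipocyte markers summed to 796 CPM there and to 264 to 787 CPM in the others. Of the skeletal muscle, endothelial, erythroid, neutrophil and megakaryocyte markers 0 were highest in control 1. In control 4 the 8 erythroid markers found summed to 54003 CPM, against 8661 to 24487 CPM in the other 6 libraries, and 6 of the 8 were lower in the EfnB2f/f-labelled libraries at an unadjusted p below 0.05, beside 5.03% of all genes. The share of these cells in the collagen values was not tested, and in bulk RNA a change in the number of cells of a type cannot be told apart from one in RNA per cell.

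**Figure D2:**
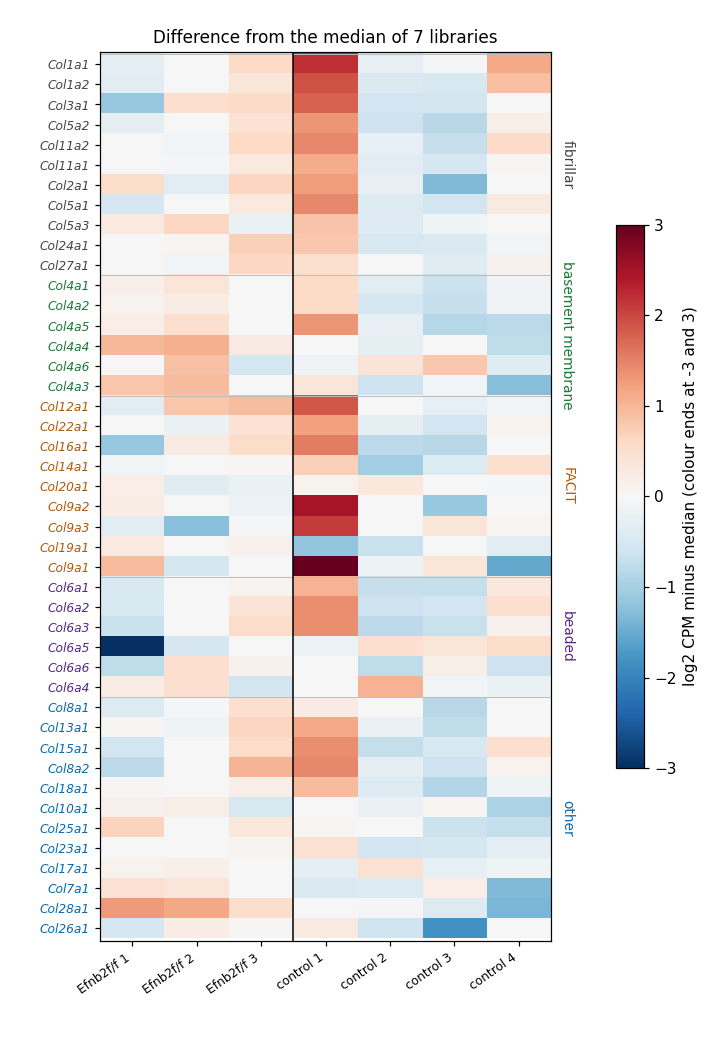
Colour gives log2 CPM minus the median of the 7 libraries, for each chain gene (rows, by class) in each library (columns, a line parting the EfnB2f/f-labelled libraries from the controls). Control 1 is red in most rows, and Col6a5 is deep blue in EfnB2f/f-labelled library 1.

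Between the genotypes, 0 of the 43 chain genes tested passed an adjusted p of 0.05 in edgeR's quasi-likelihood test, where percent called over all 15098 genes was 0 as well. At an unadjusted p below 0.05, 3 chain genes were higher in the EfnB2f/f-labelled libraries and 0 were lower, beside 4.63% of all genes higher and 5.03% lower. Their median log2 fold change was -0.01, and that of all genes tested 0.01, with 20 of 43 estimates above 0 and 51.3% of all genes. By class the medians were -0.21 for fibrillar, 0.22 for basement membrane, -0.19 for FACIT, -0.27 for beaded and 0.17 for other chains. DESeq2 called 0 chain genes, beside 0.159% of all genes higher and 0.318% lower. The study's limma pipeline, which weights libraries by estimated quality and was run without its day block, called 9. With all 7 libraries its median over the chain genes was 0.41, with 37 of 43 estimates above 0. Its median over all genes tested was -0.03. The weights are not given here, so the 7 libraries need not count equally in these values. Higher at an adjusted p below 0.05 were 7 (beside 7.49% of all genes), namely Col4a1, Col4a2, Col4a3, Col4a4, Col5a3, Col14a1 and Col28a1, and lower were 2 (beside 7.39%), Col9a3 and Col20a1. Not all of these calls show in the unweighted values. Col14a1 stood at 29.7, 31.5 and 32.5 CPM against 51.9, 15.2, 23.6 and 44.1 CPM in controls 1 to 4, with an edgeR estimate of -0.11. For Col5a3 control 1 was the highest library, at 97.8 CPM.

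With edgeR the outcome turned on the controls that stood apart. Control 1 was the highest library for most chain genes, so leaving it out raises their estimates by construction. Without control 1, the median of the chain genes was 0.43 and 36 of 43 estimates were above 0 (50.6% of all genes), with 16 estimates going from below to above 0. At an unadjusted p below 0.05, 10 were then higher and 0 lower, beside 7.27% and 3.98% of all genes. Without controls 1 and 4 the median was 0.61, 37 of 43 were above 0 (51.8% of all genes), and 20 were higher at an unadjusted p below 0.05 and 0 lower, beside 10.3% and 7.17% of all genes. The adjusted p of the chain genes was at least 0.106 in that edgeR fit, so that 0 passed, beside 0.0134% of all genes (1 higher and 1 lower). The 6 estimates below 0 were those of Col4a6, Col6a4, Col6a5, Col9a3, Col17a1 and Col20a1. Within the one cross that held both genotypes, EfnB2f/f-labelled library 3 was above control 3 for 34 of 43 chain genes (50.6% of all genes), with a median log2 difference of 0.84, which compares 2 libraries and has no replicate. If the gap in the sample numbers were the day, these 2 libraries would also differ in day, which could not be told apart from genotype.

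**Figure D3:**
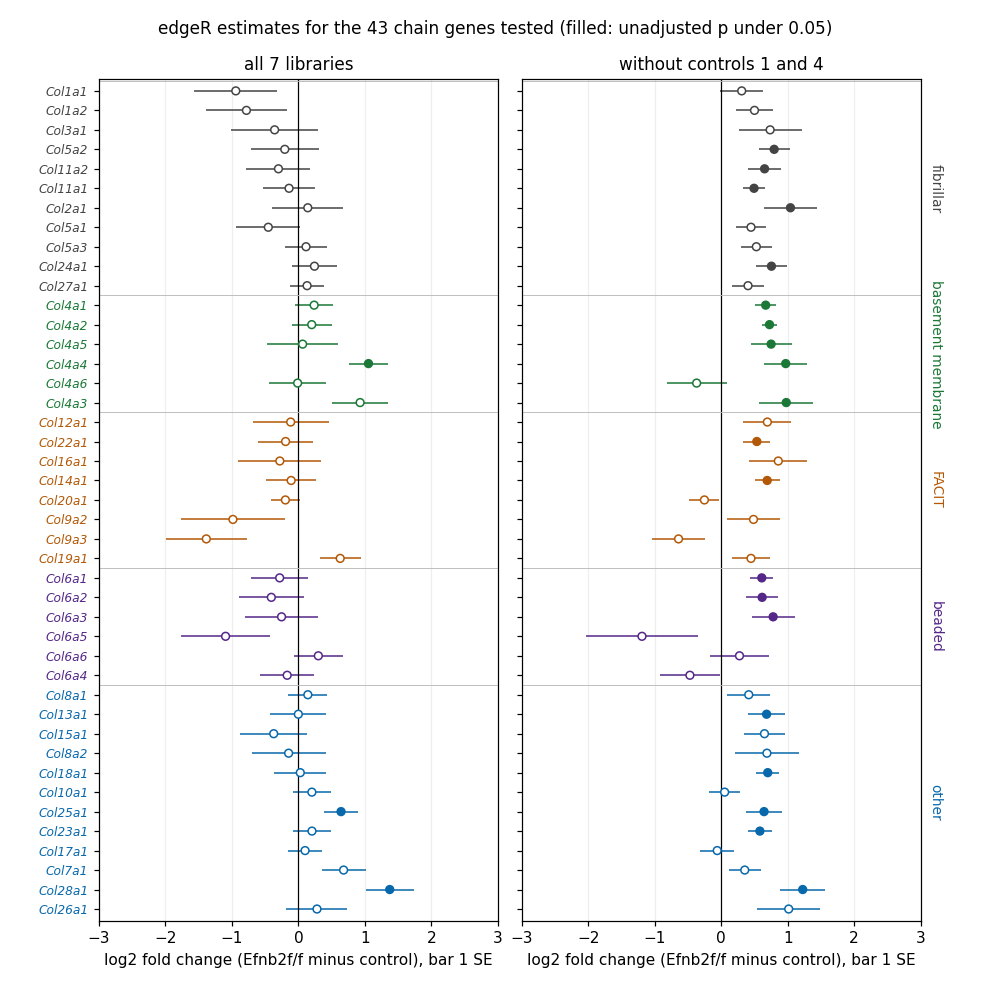
Log2 fold change (EfnB2f/f-labelled libraries minus controls) with 1 SE for the 43 chain genes tested, from edgeR with all 7 libraries (left) and without controls 1 and 4 (right), with filled points where the unadjusted p was below 0.05. The filled points number 3 on the left and 20 on the right.

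The type I genes gave low estimates with wide errors. Col1a1 (Entrez gene 12842, chr11:94936224-94953042) stood at 6669, 8038 and 12110 CPM in EfnB2f/f-labelled libraries 1, 2 and 3 and at 36428, 6811, 7666 and 17812 CPM in controls 1 to 4. The groups overlapped, with controls 1 and 4 above and controls 2 and 3 among the other group. The means were 8939 ± 2830 CPM (SD, n = 3) and 17179 ± 13771 CPM (SD, n = 4). The log2 fold change was -0.94 ± 0.62 (SE; edgeR adjusted p = 0.551). Col1a2 (chr6:4505618-4541543) stood at 6246, 7830 and 10034 CPM and, in controls, at 29304, 5790, 5598 and 14606 CPM, with a log2 fold change of -0.78 ± 0.61 (SE; edgeR adjusted p = 0.593). The same 2 controls were the highest libraries for both genes. Without control 1 the log2 fold changes were -0.27 and -0.11, and with any other single library left out they ran from -1.22 to -0.77 for Col1a1 and from -1.04 to -0.63 for Col1a2. Both turned, without controls 1 and 4, to 0.31 ± 0.32 and 0.50 ± 0.28 (SE; edgeR adjusted p = 0.664 and 0.402).

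For Col3a1, Col5a1, Col5a2, Col11a1 and Col11a2, control 1 was again the highest library, and control 4 was below EfnB2f/f-labelled library 3. Col3a1 stood at 369, 1148 and 1221 CPM and in controls at 2768, 544, 554 and 813 CPM, so that EfnB2f/f-labelled library 1 was the lowest of the 7. Col5a1, which with Col5a2 makes the type V collagen that starts fibrils, stood at 233, 331 and 406 CPM and in controls at 893, 247, 227 and 401 CPM. Col5a2 stood at 556, 681 and 914 CPM and in controls at 1709, 446, 382 and 770 CPM. The groups overlapped for each of these genes. Col11a1, a chain of type XI collagen, stood at 549, 530 and 676 CPM and in controls at 1185, 444, 390 and 562 CPM. Col11a2 stood at 477, 453 and 715 CPM and in controls at 1297, 403, 297 and 705 CPM. The 7 fibrillar estimates below 0 were Col1a1, Col1a2, Col3a1, Col5a1, Col5a2, Col11a1 and Col11a2, and the 4 above 0 were Col2a1, Col5a3, Col24a1 and Col27a1, between 0.11 and 0.24. Without controls 1 and 4 all 11 were above 0 (51.8% of all genes) with a median of 0.53, and 5 (Col2a1, Col5a2, Col11a1, Col11a2 and Col24a1) were higher at an unadjusted p below 0.05 and 0 lower, beside 10.3% and 7.17% of all genes.

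Ratios between chains of one molecule or fibril remove library size, and 8 were compared with 2-sided exact permutation tests, whose smallest possible p with 3 and 4 libraries is 0.0571. Col5a1:Col5a2 was 0.419, 0.485 and 0.444 in counts in the EfnB2f/f-labelled libraries and 0.522, 0.555, 0.595 and 0.521 in the controls, the only ratio of the 8 without overlap between the groups. Its log2 difference was -0.29, with SDs of 0.11 (n = 3) and 0.09 (n = 4), at that smallest p of 0.0571 and an adjusted p of 0.305 over the 8 exact permutation tests. Counting splits by absolute difference, a form of the test added after both values had been seen, gave an exact permutation p = 0.0286 and an adjusted p of 0.229. Col1a1:Col1a2 was 1.07, 1.03 and 1.21 against 1.24, 1.18, 1.37 and 1.22 in the controls, which overlapped (exact permutation p = 0.114, adjusted p = 0.305). Col4a1:Col4a2 lay between 1.61 and 1.87 in all 7 libraries, with a log2 difference of 0.01 (exact permutation p = 0.8).

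The remaining ratios were wider. Col12a1:Col1a1 ran from 0.0169 in control 4 to 0.0702 in EfnB2f/f-labelled library 2, with a log2 difference of 0.73 (exact permutation p = 0.114, adjusted p = 0.305). Col3a1:Col1a1 ran from 0.0457 to 0.143, Col11a1:Col11a2 from 0.798 to 1.31, Col6a1:Col6a2 from 1.09 to 1.40 and Col6a3:Col6a1 from 1.05 to 1.68, with exact permutation p from 0.343 to 0.857. With this smallest p the doubled-tail form could not have passed 0.05 for any ratio, so it says nothing on whether the ratios differed.

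**Figure D4:**
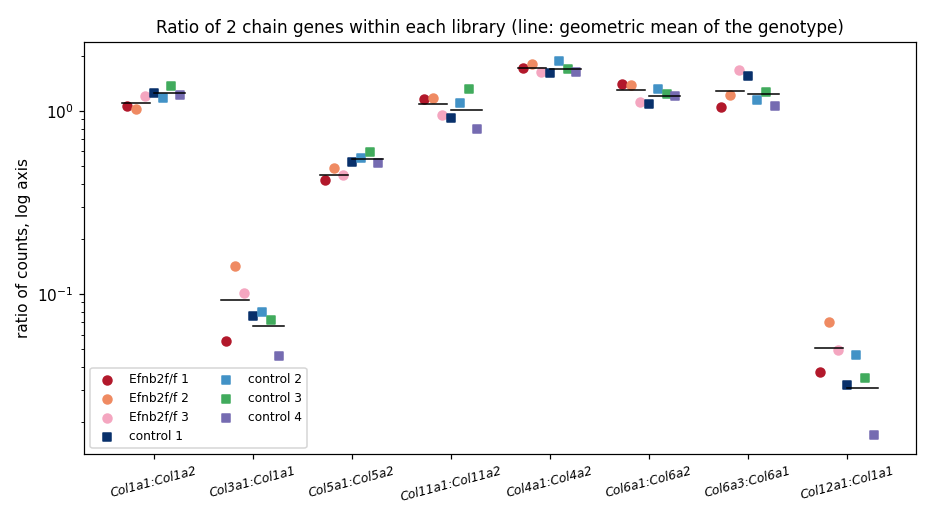
Ratio of the counts of 2 chain genes in each library on a log axis, with lines at the geometric mean of each genotype (circles, 3 EfnB2f/f-labelled libraries, and squares, 4 controls). The groups are apart for Col5a1:Col5a2 and overlap for the other 7 ratios, and Col4a1:Col4a2 is the tightest, between 1.61 and 1.87.

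Basement membrane chains were the class with the largest share of estimates above 0, 5 of 6, beside 9 of 12 in the class of others and 51.3% of all genes. Col4a1 stood at 281, 325 and 251 CPM in the EfnB2f/f-labelled libraries and at 377, 200, 161 and 234 CPM in the controls, and Col4a2 at 165, 180 and 154 CPM and 234, 107, 94.7 and 144 CPM. For both, control 1 was the highest and the other 3 controls were below every library of the other group. Their log2 fold changes were 0.24 ± 0.29 and 0.20 ± 0.30 (SE) with all libraries, and 0.67 ± 0.16 and 0.73 ± 0.12 (SE; edgeR adjusted p = 0.144 and 0.106) without controls 1 and 4. Col4a4, which with Col4a3 and Col4a5 makes the type IV network best known from the kidney filter, stood at 3.86, 4.02 and 2.31 CPM against 1.92, 1.57, 1.89 and 1.14 CPM, with every EfnB2f/f-labelled library above every control. Its log2 fold change was 1.05 ± 0.30 (SE; edgeR unadjusted p = 0.0070, adjusted p = 0.511), and it rests on 22 to 77 counts per library. Col4a3 had a log2 fold change of 0.93 ± 0.42 (SE) on 8 to 37 counts, Col4a5 one of 0.06 and Col4a6 one of -0.01. Col4a1 overlaps Col4a2 and Col4a3 overlaps Col4a4 in the annotation, and the strand setting of the counting is not given in the sources used here, so part of their reads may be shared. Of this class 5 of 6 had an unadjusted p below 0.05 without control 1, all higher (7.27% of all genes higher and 3.98% lower in that fit). Endothelial and muscle cells make type IV collagen. Of 7 endothelial markers 3 (Emcn, Tek and Flt1) were higher at an unadjusted p below 0.05 by edgeR, while Vwf had an estimate of -0.28. The 7 summed to 929 to 1005 CPM in the EfnB2f/f-labelled libraries and to 751 to 1388 CPM in the controls, which overlapped. The 12 skeletal muscle markers summed to 28736 to 42553 CPM and, in the controls, to 13763 to 30497 CPM. Of these 12, 5 were higher at an unadjusted p below 0.05 by edgeR. Over all genes 4.63% were higher and 5.03% lower at that p. The part of these cells in the type IV values was not tested.

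Among FACIT chains, Col12a1, which coats type I fibrils, stood at 251, 564 and 601 CPM and in controls at 1161, 318, 267 and 301 CPM. Col22a1, found at muscle-tendon junctions, stood at 122, 107 and 165 CPM and in controls at 287, 99.8, 81.8 and 132 CPM. Control 1 was the highest for both and the groups overlapped, with log2 fold changes of -0.12 ± 0.57 and -0.19 ± 0.42 (SE). Without control 1 these turned to 0.68 and 0.33, and without controls 1 and 4 to 0.69 ± 0.36 and 0.53 ± 0.20 (SE; edgeR adjusted p = 0.372 and 0.247). Col12a1 also turned, to 0.19, without EfnB2f/f-labelled library 1. Col14a1 and Col16a1 ran from 15.2 to 51.9 CPM and from 30.7 to 194 CPM, and Col20a1 from 4.54 to 7.16 CPM. Col19a1, named after its values were seen, was higher in every EfnB2f/f-labelled library (2.86, 2.35 and 2.56 CPM) than in any control (1.04, 1.47, 2.34 and 1.86 CPM), by 0.63 ± 0.31 on the log2 scale (SE; edgeR adjusted p = 0.517). The gap between library 2 and control 3 was that between 45 and 42 counts. Over all chain genes tested, 3 (Col4a4, Col19a1 and Col28a1) had every EfnB2f/f-labelled library above every control, and 1 (Col9a3) had them all below, beside 5.05% and 6.3% of all genes tested. For Col9a3 the nearest libraries were EfnB2f/f-labelled library 3 (1.20 CPM, 24 counts) and control 2 (1.25 CPM, 23 counts), so its raw counts ran the other way.

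For the type II and IX chains, best known from cartilage, Col2a1 over Col9a1 in CPM ran from 271 (control 1) to 3034 (control 4). That spread rests on 2 to 56 Col9a1 counts. Col2a1 over Col11a2, a fibrillar chain with more counts, ran from 0.424 (control 3) to 0.966 (EfnB2f/f-labelled library 1). Col2a1, the main chain of cartilage fibrils, was present in every library, at 460, 251 and 488 CPM in the EfnB2f/f-labelled libraries and 747, 264, 126 and 314 CPM in the controls. Col9a1, Col9a2 and Col9a3, whose products coat type II fibrils, had at most 2.76, 7.59 and 5.37 CPM, all in control 1, and Col9a1 (2 to 56 counts) was the chain gene that did not pass the filter on low counts. Col10a1, the chain of hypertrophic cartilage, ran from 5.79 to 12.7 CPM. Col2a1 varied 5.94-fold between the highest and lowest library, Acan, the cartilage proteoglycan, 62.4-fold (1.19 to 74.5 CPM), and Comp 16.0-fold (14.1 to 226 CPM). Matn1 and Matn3, defining cartilage matrix genes, were at 0 to 0.37 CPM and at 0 to 0.296 CPM. Cartilage markers summed to 348 CPM in control 1 and to 26.3 to 86.1 CPM in the others. Whether Col2a1 RNA came from cartilage, and from which, was not tested. Col9a3 had a log2 fold change of -1.39 ± 0.61 (SE; edgeR unadjusted p = 0.051, adjusted p = 0.511). Without control 1 it was -0.60, and with any other single library left out it ran from -1.64 to -1.10. It overlaps Tcfl5.

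Beaded filament chains gave the same picture for the 3 highly expressed members. Col6a1 stood at 125, 171 and 183 CPM and in controls at 355, 106, 104 and 212 CPM. Col6a2 stood at 89.4, 124 and 163 CPM and in controls at 326, 80.5, 83.9 and 177 CPM. Col6a3 stood at 131, 209 and 307 CPM and in controls at 550, 121, 130 and 227 CPM. Controls 2 and 3 were the lowest 2 libraries for each of them, and without controls 1 and 4 the log2 fold changes were 0.61 ± 0.17, 0.61 ± 0.23 and 0.78 ± 0.32 (SE; edgeR adjusted p = 0.166, 0.252 and 0.282). Col6a5, named after its values were seen, was at 2.12 CPM (40 counts) in EfnB2f/f-labelled library 1 and at 21.6 to 44.8 CPM in the other 6 libraries, which is 0.0607 of their median. Its log2 fold change was -1.10 ± 0.66 (SE; edgeR adjusted p = 0.533), and it was -0.57 without EfnB2f/f-labelled library 1 and -1.70 without EfnB2f/f-labelled library 3. Col6a4 and Col6a6, its paralogs, ran from 0.802 to 2.44 CPM and from 1.74 to 4.23 CPM. How the counting treated reads that fit more than 1 of these similar genes is not given in the sources used here.

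**Figure D5:**
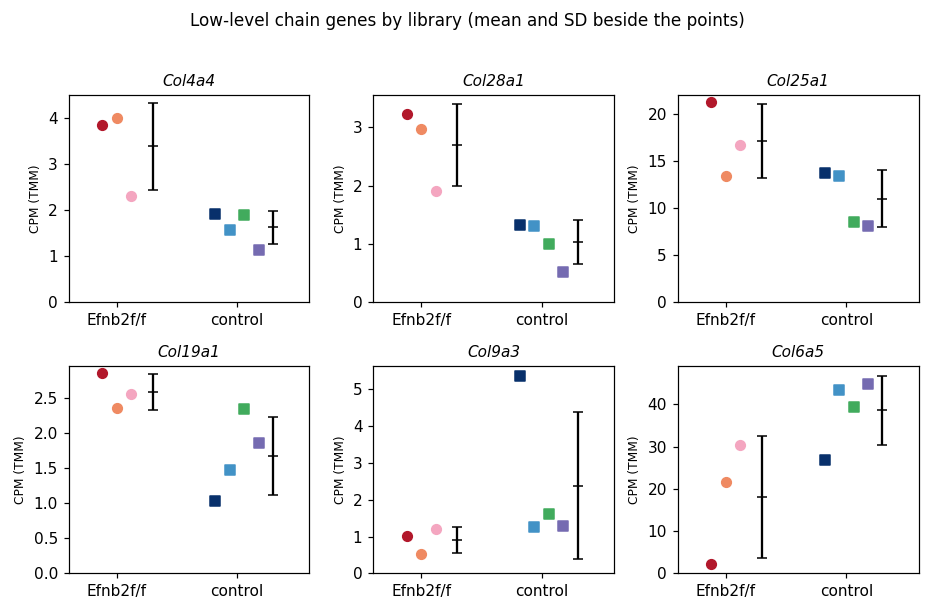
CPM by library for 6 chain genes of low level, with the mean and SD of each genotype beside its points (circles, 3 EfnB2f/f-labelled libraries, and squares, 4 controls, control 1 darkest). The groups do not overlap for Col4a4, Col28a1, Col19a1 and, narrowly, Col9a3. Col9a3 is high in control 1, and Col6a5 is at 2.12 CPM in EfnB2f/f-labelled library 1.

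In the remaining types, Col8a1, a short-chain network collagen of vessels, stood at 38.5, 49.3 and 72.2 CPM and in controls at 61.0, 51.3, 28.9 and 52.2 CPM. Col13a1, a transmembrane collagen, stood at 21.8, 19.6 and 33.2 CPM and in controls at 47.1, 18.6, 12.5 and 21.4 CPM. Neither group stood apart for these genes, with log2 fold changes of 0.14 ± 0.29 and 0.00 ± 0.42 (SE). They were, without controls 1 and 4, 0.41 ± 0.32 and 0.68 ± 0.27 (SE; edgeR adjusted p = 0.548 and 0.270). Col28a1 stood at 3.23, 2.97 and 1.91 CPM against 1.33, 1.30, 1.00 and 0.517 CPM, with every EfnB2f/f-labelled library above every control, and gave the highest estimate of the chain genes tested, 1.37 ± 0.36 (SE; edgeR unadjusted p = 0.0047, adjusted p = 0.511) on 10 to 61 counts. Col25a1, a transmembrane chain, stood at 21.3, 13.4 and 16.7 CPM against 13.8, 13.4, 8.58 and 8.17 CPM, which overlapped, with 0.64 ± 0.26 (SE; edgeR unadjusted p = 0.037, adjusted p = 0.511). The multiplexins Col15a1 and Col18a1 had log2 fold changes of -0.37 and 0.03, Col8a2 and Col10a1 of -0.15 and 0.20, Col17a1 and Col23a1 of 0.10 and 0.20, Col7a1, the anchoring fibril chain, of 0.68, and Col26a1 of 0.28, and none of these 8 had an unadjusted p below 0.05.

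Genes that make, process and break down collagen did not pass the edgeR test either, with 0 of 40 called by edgeR. The limma pipeline called 2 of them higher, the matrix metalloproteinases Mmp2 (log2 fold change 0.81, limma adjusted p = 0.0398) and Mmp14 (0.65, limma adjusted p = 0.0248), and 0 lower, beside the 7.49% and 7.39% of all genes given above. At an unadjusted p below 0.05, 0 were higher and 1 was lower (4.63% and 5.03% of all genes), Mmp8, a collagenase best known from neutrophils, at 191, 275 and 215 CPM against 312, 417, 342 and 258 CPM. Neutrophil markers summed to 11506 to 14373 CPM in the EfnB2f/f-labelled libraries and to 16429 to 19524 CPM in the controls, and their part in Mmp8 was not tested. Of these 40 genes 30 were highest in control 1, among them Serpinh1, the collagen chaperone, at 85.5, 96.6 and 239 CPM against 393, 105, 78.1 and 322 CPM. Without controls 1 and 4 the median of the 40 moved from -0.28 to 0.49, with 14 higher and 1 lower at an unadjusted p below 0.05, beside 10.3% and 7.17% of all genes. Of 10 collagen receptors 0 were called by edgeR and 1 by the limma pipeline (Ddr2, a receptor for fibrillar collagens, higher, log2 fold change 0.42, limma adjusted p = 0.0275). By edgeR 1, Itga1, an integrin subunit that binds type IV collagen, was higher at an unadjusted p below 0.05, at 84.5, 63.6 and 57.5 CPM against 42.4, 51.2, 56.1 and 41.98 CPM (log2 fold change 0.52 ± 0.19, SE; edgeR adjusted p = 0.511). Without controls 1 and 4 the median of the receptors went from 0.22 to 0.41, with 4 higher and 0 lower at an unadjusted p below 0.05 (10.3% and 7.17% of all genes).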

How the data were processed

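The authors sequenced TruSeq libraries as 100-base paired-end reads, mapped them to mm10 with Rsubread and counted them per Entrez gene with featureCounts, and the deposited values are raw counts, without normalization or pooling. Strand setting and counter version are not given in the sources used here. Genes at 0.65 CPM or more in at least 3 libraries were kept and classes removed as in the study, which left 15098. These were tested with edgeR 4.0.16 (TMM, robust quasi-likelihood, all 7 libraries, no covariate) in R 4.3.3 with Benjamini-Hochberg adjustment over all of them. Each SE is the estimate over the root of its F statistic. DESeq2 1.42.0 and the study's limma 3.58.1 pipeline were alternatives. Its prior count, 2, was taken from an earlier analysis that had settled on it after seeing results. Ratios were compared with SciPy 1.17.1's exact permutation test over 35 splits, 2-sided by doubling the smaller tail. After its values were seen this was replaced by a count of absolute differences, and then restored, and both are given. The design had not said which form to use. The study blocked on day, which could not be done here. Tests were tried on simulated counts.

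Members, classes and gene lists were chosen with earlier results of these data known. Every chain gene is named, with each library's value for the 2 of highest mean RPKM in each class, those in the ratios and those with an unadjusted p below 0.05. Col2a1, Col6a5 and Col19a1 were given in more detail after their values were seen. The labels do not state that each library is a separate mouse, so p-values measure the spread between these libraries, which may in part be technical. Libraries of one genotype differed by more than sampling noise (chi-square per degree of freedom 33.4 to 218).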

Additional observations from a re-analysis of the deposited data

Results flagged for a closer look

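In the 4 controls, 8 of 52 sets of values (44 chain genes and 8 ratios) had an end value whose gap to its nearest neighbour exceeded Dixon's 95% critical value, as a part of the whole range. For independent sets of normal values chance gives about 1 in 20, or 2.6. The CPM values were not logged, and the sets share libraries and genes, so 2.6 is not the number to be awaited here. Control 1 was the high value for Col12a1 (0.943), Col9a3 (0.911), Col9a2 (0.893), Col9a1 (0.892), Col3a1 (0.879) and Col4a5 (0.854). Control 2 was the high value for Col6a4 (0.895) and Col17a1 (0.844), at 2.44 and 4.88 CPM. The 6 genes that were high in control 1 share that library, so they are not separate events.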

How the results depend on the processing

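With edgeR, 0 genes were called in either direction, against 24 higher and 48 lower with DESeq2, 1131 and 1115 with the limma pipeline, 1 higher with a replicate block, 1 and 1 without controls 1 and 4, and 0 to 1 higher and 0 to 2 lower when 1 library at a time was left out (2 lower without EfnB2f/f-labelled library 3, 1 and 1 without control 4). Among chain genes the calls stayed at 0 except for 7 higher and 2 lower in the limma pipeline, and with 1 library left out they were 0 and 0. Their median was 0.84 when the parent cross entered as a block, which leaves only EfnB2f/f-labelled library 3 against control 3, possibly of different days. It was 0.41 in the limma pipeline with all 7 libraries, weighted by estimated quality, and 0.61 with edgeR without controls 1 and 4. With 1 library left out it ran from -0.22 to 0.43, the highest without control 1. The cause of these moves was not tested. Replicate numbers did not pair the libraries (correlations of same-numbered deviations -0.14, 0.06 and -0.42), and the block is given for completeness.

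Estimates that changed sign (log2 scale) were the following. With library size only they were Col14a1 0.0102, Col4a6 0.0504, Col13a1 0.0997. With upper-quartile scaling they were Col4a6 0.00438, Col13a1 0.00968. With at least 10 counts in every library they were Col13a1 0.00676. In the limma pipeline they were Col12a1 0.70, Col22a1 0.23, Col16a1 0.73, Col14a1 0.71, Col9a2 0.0733, Col4a6 0.0191, Col6a1 0.59, Col6a2 0.50, Col6a3 0.66, Col1a2 0.11, Col3a1 0.72, Col5a2 0.62, Col11a2 0.35, Col11a1 0.32, Col5a1 0.38, Col15a1 0.45, Col8a2 0.15, Col13a1 0.19, Col17a1 -0.26. With the replicate block they were Col12a1 0.0201, Col16a1 0.069, Col14a1 0.23, Col6a1 0.0307, Col6a3 0.0607, Col5a2 0.12, Col11a2 0.00687, Col10a1 -0.00274, Col13a1 0.11. With the parent cross as a block they were Col12a1 1.17, Col22a1 1.01, Col16a1 1.38, Col14a1 0.47, Col9a2 0.97, Col6a1 0.82, Col6a2 0.96, Col6a3 1.23, Col6a6 -0.0583, Col1a1 0.66, Col1a2 0.84, Col3a1 1.14, Col5a2 1.26, Col11a2 1.27, Col11a1 0.80, Col5a1 0.84, Col5a3 -0.0778, Col7a1 -0.21, Col15a1 1.01, Col8a2 1.62, Col10a1 -0.54, Col13a1 1.41. Without controls 1 and 4 they were Col12a1 0.69, Col22a1 0.53, Col16a1 0.86, Col14a1 0.69, Col9a2 0.49, Col6a1 0.61, Col6a2 0.61, Col6a3 0.78, Col1a1 0.31, Col1a2 0.50, Col3a1 0.74, Col5a2 0.80, Col11a2 0.65, Col11a1 0.49, Col5a1 0.45, Col15a1 0.65, Col8a2 0.69, Col13a1 0.68, Col17a1 -0.0607, Col11a1:Col11a2 -0.15, Col4a1:Col4a2 -0.0567. With 1 library left out at a time, the ranges that crossed 0 were Col12a1 from -0.33 to 0.68, Col22a1 from -0.40 to 0.33, Col16a1 from -0.62 to 0.53, Col14a1 from -0.35 to 0.18, Col9a2 from -1.31 to 0.32, Col4a5 from -0.16 to 0.84, Col4a6 from -0.48 to 0.26, Col6a1 from -0.49 to 0.18, Col6a2 from -0.64 to 0.14, Col6a3 from -0.60 to 0.44, Col6a4 from -0.40 to 0.21, Col3a1 from -0.62 to 0.52, Col5a2 from -0.44 to 0.43, Col11a2 from -0.55 to 0.23, Col11a1 from -0.32 to 0.33, Col2a1 from -0.14 to 0.77, Col5a1 from -0.67 to 0.15, Col5a3 from -0.0837 to 0.44, Col24a1 from -0.0243 to 0.62, Col27a1 from -0.13 to 0.29, Col15a1 from -0.69 to 0.18, Col18a1 from -0.18 to 0.52, Col8a1 from -0.14 to 0.33, Col8a2 from -0.75 to 0.48, Col13a1 from -0.27 to 0.51, Col11a1:Col11a2 from -0.0175 to 0.22, Col4a1:Col4a2 from -0.0266 to 0.0591, Col6a3:Col6a1 from -0.13 to 0.20. The exact test with its smaller tail doubled cannot reach the threshold for a ratio with all 7 libraries or with fewer, so calls of ratios say nothing of stability.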
